A study of Mus musculus with 4 samples.

Results

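Cycling T and NK cells are the lymphocytes of the glioma infiltrate that carried transcripts of DNA replication and mitosis when they were captured. They were chosen by a fixed rule on unique molecular identifiers (UMIs, one per captured transcript). A barcode entered with 500 or more detected genes, under 10% mitochondrial UMIs, 4 or more UMIs of Top2a plus Mki67, 2 or more UMIs of Cd3d, Cd3e, Ncr1 and Klrb1c together, and fewer than 30 UMIs of C1qa, C1qb and C1qc together. The rule kept 388 of 13960 barcodes, 150 of 6689 in the WT library and 238 of 7271 in the CaMKK2 KO library. Of the 12866 barcodes that passed the filters on genes and mitochondrial UMIs, 3540 met the T and NK criteria. Of these, 2255 had no UMI of Top2a or Mki67 and are called non-cycling here, and 897 had 1 to 3 and were set aside.

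Live CD45+ leukocytes were sorted from tumor-bearing hemispheres 14 days after CT2a glioma cells, a mouse glioma line, had been placed in the brains of C57Bl/6 mice, and were measured by single-cell RNA sequencing. One group was wild type (WT) and the other lacked calcium/calmodulin-dependent protein kinase kinase 2 in every cell of the host (CaMKK2 KO), with 4 mice per genotype aged 8 to 12 weeks. Both groups bore the same tumor line, and no tumor-free brain was measured. The 4 mice of a genotype carried different antibody hashtags (M1 to M4) and shared a single capture channel, so that genotype and channel cannot be told apart. M1 of WT has no link to M1 of CaMKK2 KO.

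A resting lymphocyte holds in G0. After antigen or cytokine signals it builds nucleotides and replication proteins, copies its DNA in S phase under E2F control, and then expresses a late program of cyclin B, kinesins and kinetochore proteins for G2 and mitosis. Promoters of the late program often carry CCAAT boxes, bound by NF-Y, and the cell cycle homology region (CHR), bound by the MuvB complexes that repress these genes in G0 and activate them in G2. In tumors, dividing CD8 T cells and NK cells are a source of new effector cells, and regulatory CD4 T cells also divide at these sites.

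These elements were searched in the 250 bases before the start of the marker genes, except for Stmn1, which had no promoter sequence in the source used. The windows of 3 marker genes that held matches, the rule's genes Top2a and Mki67 among them, are shown so that the words can be seen in place. They are given 5′ to 3′ on the strand of the gene, from RefSeq on GRCm38.p6, which corresponds to the mm10 build of the files. Capitals mark CCAAT and CHR matches on either strand. Each motif was searched on both strands. The CCAAT box was searched by its own letters and the cell cycle homology region as TTTGAA. For E2F the letters were TTTGGCGC, TTTCCCGC, TTTGCCGC or TTTCGCGC. None of these words overlaps another in the 3 windows.
Top2a (chr11:99024190-99024439, minus strand): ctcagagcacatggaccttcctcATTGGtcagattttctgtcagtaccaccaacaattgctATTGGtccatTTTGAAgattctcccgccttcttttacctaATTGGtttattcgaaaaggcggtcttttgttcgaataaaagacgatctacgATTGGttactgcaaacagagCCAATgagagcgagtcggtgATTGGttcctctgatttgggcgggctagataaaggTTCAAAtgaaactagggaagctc
Mki67 (chr7:135716380-135716629, minus strand): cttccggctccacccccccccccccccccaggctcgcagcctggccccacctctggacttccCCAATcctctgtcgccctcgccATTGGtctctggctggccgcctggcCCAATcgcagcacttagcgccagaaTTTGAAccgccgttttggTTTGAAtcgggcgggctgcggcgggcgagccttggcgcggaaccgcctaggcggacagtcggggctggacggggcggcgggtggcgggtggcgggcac
Pclaf (chr9:65890073-65890322, plus strand): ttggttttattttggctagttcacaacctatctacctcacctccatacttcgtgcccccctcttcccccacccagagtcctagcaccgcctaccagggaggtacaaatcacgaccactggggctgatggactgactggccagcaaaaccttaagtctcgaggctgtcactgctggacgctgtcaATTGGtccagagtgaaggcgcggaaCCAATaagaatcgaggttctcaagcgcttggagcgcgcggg
The Top2a window held 6 CCAAT and 2 CHR words, the Mki67 window 3 and 2, and the Pclaf window 2 CCAAT words and no CHR word. None held an E2F word as spelled here. The window of Birc5, another marker, and that of Pttg1, described below, held none of the 3 motifs. The Pttg1 window (chr11:43425982-43426231, minus strand) lies inside the gene span given below, so that it does not cover the bases before that span. A CHR word was present in 18.3% of 27025 promoters of the same length, in 40% of the 45 G2/M-list genes other than Top2a and Mki67 with a sequence and in 19.4% of the 31 S-list genes with a sequence. A CCAAT word was present in 37.5% of all promoters, in 75.6% of these G2/M genes and in 71.0% of the S list. An E2F word was present in 2.16% of all promoters, in 6.67% of these G2/M genes and in 29.03% of the S list. These matches are descriptions of letters and not of occupied sites.

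The label was checked against the markers. Beside Top2a, which untangles replicated DNA, and Mki67, which coats mitotic chromosomes, the marker genes were Pclaf, a partner of the replication clamp PCNA, Stmn1, a regulator of microtubules, and Birc5, a subunit of the chromosomal passenger complex. Pclaf had at least 1 UMI in 75.8% of the 388 cells, Stmn1 in 88.4% and Birc5 in 66.0%. In the non-cycling cells these shares were 3.90%, 14.8% and 2.48%. The median UMI count was 25241 in cycling and 7196 in non-cycling cells, so that shares of cells with a UMI are not on an equal footing. The level in CPM scales the UMIs of a gene by all UMIs of the summed cells, and so takes depth into account. Over all cells Pclaf stood at 425 CPM in cycling and 6.27 CPM in non-cycling cells, Stmn1 at 779 and 32.3 CPM, and Birc5 at 280.4 and 2.87 CPM. Members carried from 4 to 286 UMIs of Top2a plus Mki67, with a median of 18, and 265 of 388 had 8 or more. The 55 cells just inside the rule, with 4 UMIs, had 40.5 CPM of Pclaf and 35.5 CPM of Birc5. The 98 cells just outside it, with 3 UMIs, had 32.2 and 24.0 CPM. Cells on either side of the line were thus close to each other, and well below the average member.

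The T cell list, of which the rule used Cd3d and Cd3e but not Cd3g, Trac or Trbc2, summed to 1901 ± 799.9 CPM (SD, n = 4) in WT and 3370 ± 625 CPM in CaMKK2 KO cycling cells. Its most abundant gene was Trbc2, a constant segment of the T cell receptor, at 713 CPM. Cd3g, Trac and Trbc2 alone summed to 1320.5 ± 539.9 CPM in WT mice and 2319 ± 433 CPM in CaMKK2 KO mice. Of the NK list the rule used Ncr1 and Klrb1c, and the other genes, Klre1, Eomes and Klra8, summed to 553 ± 83.5 CPM (WT) and 351 ± 92.9 CPM (KO mice). Microglia markers summed to 4.66 ± 1.83 CPM in WT mice and 5.71 ± 4.20 CPM in CaMKK2 KO mice, B cell markers to 2.12 ± 2.73 and 5.32 ± 4.54 CPM, and the tumor and glia genes Sox2, Olig1 and Gfap were at 0. Of the macrophage markers the rule caps the C1q genes, and the other 4 (Apoe, Lyz2, Csf1r, Adgre1) summed to 288 ± 16.4 CPM in the cycling cells of WT mice and 202 ± 155 CPM in those of CaMKK2 KO mice, and to 652 and 772 CPM in non-cycling cells. In WT cycling cells Apoe led, with 219 CPM against 17.6 CPM in CaMKK2 KO, and in CaMKK2 KO Lyz2 led, with 168 CPM against 59.8 CPM in WT. The 7 markers together summed to 386 ± 24.3 and 278 ± 146 CPM in cycling cells. In all, 77 members had no C1q UMI and 49 had 5 or more.

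Of the 388 members, 336 carried the hashtag of a single mouse, 125 in WT and 211 in CaMKK2 KO, and all values per mouse below rest on these. The others carried 2 hashtags. The share with 2 hashtags was 16.7% in WT and 11.3% in CaMKK2 KO cycling cells, against 6.26% and 5.71% of the non-cycling cells. Between the libraries, 42 barcodes were shared, of which 9 were members here. None of their counterparts was a member, and 7 of the 9 counterparts had under 1000 UMIs. Per mouse, cycling cells numbered 12, 28, 44 and 41 in WT M1 to M4 and 48, 57, 87 and 19 in CaMKK2 KO M1 to M4. Their summed UMIs ran from 288600 (WT M1) to 2196402 (CaMKK2 KO M3), so that WT M1 and CaMKK2 KO M4, with 413082, are the least precise. Median UMIs per cycling cell ran from 23910.5 to 30739 in WT and from 18210.5 to 27090 in CaMKK2 KO mice.

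The lineage of each cycling cell was read from its receptor genes: Cd8a and Cd8b1 for CD8 T cells, Ncr1 and Klrb1c for NK cells, Foxp3 for regulatory CD4 T cells, and Cd4 without Foxp3 for other CD4 T cells. NK cells had no UMI of Cd4 or Foxp3. They could carry 1 UMI of Cd3d plus Cd3e and 1 of Cd8a plus Cd8b1, and Cd3g, Trac and Trbc2 were not part of the gate. CD8 T cells and NK cells made up most of the cycling compartment. Of the 336 cells, 126 were CD8 T cells, 107 NK cells, 50 regulatory CD4 T cells, 32 other CD4 T cells and 2 gamma-delta T cells, and 19 could not be assigned. The other CD4 T cells fell almost entirely on one side, with 1 cell in WT and 31 in CaMKK2 KO. Among non-cycling cells the same gate held 43 WT and 165 CaMKK2 KO cells.

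Lineages differed in how often they cycled. Among all cells of a lineage in a mouse, the cycling rate was 16.5% ± 9.16 (SD, n = 8 mice) for CD8 T cells, 12.9% ± 7.01 for regulatory CD4 T cells, 7.12% ± 3.55 for NK cells and 5.77% ± 6.08 for other CD4 T cells. CD8 T cells cycled more often than NK cells in 7 of 8 mice, by 9.34 percentage points (exact sign-flip test over mice, two-sided p = 0.0234, adjusted over 3 comparisons 0.0234). By genotype, the means for CD8 T and NK cells were 9.91% and 8.47% in WT and 23.0% and 5.78% in CaMKK2 KO, and those for NK and other CD4 T cells stood in opposite orders, 8.47% and 1.39% in WT and 5.78% and 10.1% in CaMKK2 KO. Whether the gaps between lineages differ between genotypes was not tested. CD8 T cells cycled more often than other CD4 T cells in 8 of 8 mice, by 10.7 points (exact sign-flip p = 0.00781, the smallest that 8 mice can give, adjusted 0.0234). Regulatory CD4 T cells cycled more often than other CD4 T cells in 7 of 8 mice, by 7.11 points (exact sign-flip p = 0.0156, adjusted 0.0234). A rule in absolute UMIs favors deep cells. After each cell was thinned to 4000 UMIs and 2 UMIs of Top2a plus Mki67 were required, CD8 T cells exceeded other CD4 T cells by 4.14 points only (exact sign-flip p = 0.195), whereas the other 2 comparisons kept their side of the threshold. WT M1 held a single other CD4 T cell, which did not cycle. Without that mouse CD8 T cells exceeded other CD4 T cells by 11.4 points (exact sign-flip p = 0.0156) and regulatory CD4 T cells exceeded them by 8.12 points (exact sign-flip p = 0.0156). WT M1 held 0 cycling cells among 10 regulatory CD4 T cells, which allows a rate of up to 30%, and 0 of 17 other CD4 T cells in WT M2 and M4 allows up to 17.6%.

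The design asks whether loss of CaMKK2 in the host changes the dividing lymphocytes. The share of T and NK cells that cycled was 8.11%, 7.37%, 11.1% and 9.43% in WT M1 to M4 and 11.03%, 10.2%, 12.9% and 7.39% in CaMKK2 KO M1 to M4. The genotypes overlapped, and their means of 8.99% ± 1.62 and 10.4% ± 2.30 (SD, n = 4) did not pass an exact permutation test (two-sided p = 0.343, adjusted over 7 shares 0.56; the smallest p that 4 against 4 mice can give is 0.0286). For CD8 T cells the rate was 5.56%, 9.92%, 11.9% and 12.2% in WT M1 to M4 and 15.6%, 35.0%, 19.0% and 22.5% in CaMKK2 KO M1 to M4. All CaMKK2 KO mice lay above all WT mice. The means were 9.91% ± 3.08 and 23.0% ± 8.47 (exact permutation p = 0.0286, adjusted over 5 lineages 0.143). This comparison by lineage was added after the data had been seen. After thinning, the CD8 rates were 8.33%, 8.40%, 8.67% and 12.2% in WT and 13.9%, 30.4%, 12.9% and 17.1% in CaMKK2 KO, and the genotypes still did not overlap. With 8 or more UMIs of Top2a plus Mki67 required, they did overlap. The CD8 rates were then 5.56%, 5.79%, 8.81% and 6.11% in WT M1 to M4 and 8.51%, 31.7%, 10.9% and 12.5% in CaMKK2 KO M1 to M4. The denominators differ between genotypes. CaMKK2 KO M2 and M4 had 60 and 40 CD8 T cells in all, and WT M1 had 18. The NK rate was 8.47% ± 2.86 in WT and 5.78% ± 4.06 in CaMKK2 KO (exact permutation p = 0.314), the regulatory CD4 rate 8.84% ± 5.90 and 16.9% ± 6.05 (exact permutation p = 0.114), and the rate of other CD4 T cells 1.39% ± 2.78 and 10.1% ± 5.24 (exact permutation p = 0.0571). None of the 5 passed after adjustment.

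**Figure D1:**
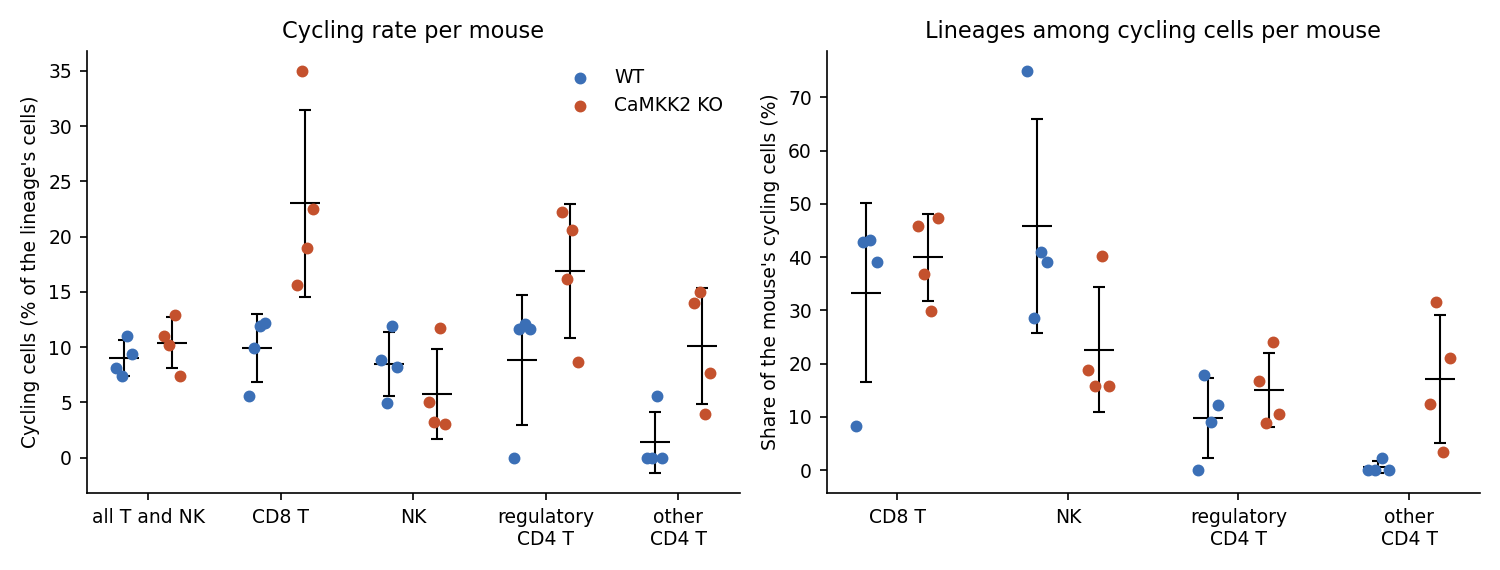
Left, percent of the T and NK cells of each mouse, and of each lineage, that were cycling; right, percent of the cycling cells of each mouse that belonged to each lineage. Points are mice, and bars are the mean and SD of 4 mice; the CD8 rate ran from 5.56% to 12.2% in WT and from 15.6% to 35.0% in CaMKK2 KO.

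The make-up of the cycling compartment is drawn in the right panel of the plot of rates and lineages. Other CD4 T cells were 0%, 0%, 2.27% and 0% of the cycling cells in WT M1 to M4 and 12.5%, 31.6%, 3.45% and 21.1% in CaMKK2 KO M1 to M4. The genotypes did not overlap, and the difference of 16.6 points had the smallest possible p (exact permutation p = 0.0286), which became 0.1 after adjustment over 7 shares. NK cells were 75%, 28.6%, 40.9% and 39.0% of cycling cells in WT and 18.8%, 15.8%, 40.2% and 15.8% in CaMKK2 KO. Here CaMKK2 KO M3 lay among the WT mice (exact permutation p = 0.0857, adjusted 0.2). CD8 T cells were 33.3% ± 16.8 of the cycling cells in WT and 40.0% ± 8.18 in CaMKK2 KO (exact permutation p = 0.6), and without WT M1, with 1 cycling CD8 T cell, the difference, CaMKK2 KO minus WT, was -1.71 points. Regulatory CD4 T cells were 9.79% ± 7.47 and 15.0% ± 6.95 (exact permutation p = 0.4).

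Cycling cells were described by 2 published marker lists, 43 genes of S phase and 54 of G2/M. Top2a and Mki67 were left out of the latter because the rule used them. The rule still selects cells by these 2 G2/M genes, which can favor the G2/M list. Genes of both lists were also read in non-cycling cells, such as Hmgb2 (G2/M list, 283 CPM) and Pcna (S list, 86.3 CPM). No share was computed for non-cycling cells, so that equal shares do not mark a border between phases. G2/M-list UMIs as a share of the UMIs of both lists had a median of 64.9% over the 336 cells, and 217 of them carried more G2/M than S UMIs. The median share was 73.4% in CD8 T cells, 74.5% in regulatory CD4 T cells, 59.4% in NK cells and 55.1% in other CD4 T cells. In each of these 4 lineages some cells carried more S and others more G2/M UMIs, with 87 of 126, 39 of 50, 61 of 107 and 18 of 32 cells on the G2/M side. Summed per mouse, the G2/M share was 68.3%, 61.3%, 65.2% and 68.4% in WT M1 to M4 and 72.9%, 74.0%, 72.9% and 69.0% in CaMKK2 KO M1 to M4. The genotypes did not overlap, though WT M4 and CaMKK2 KO M4 were close. The difference of 6.42 points had an exact permutation p of 0.0286 (adjusted over 7 shares 0.1), and it was 1.62 points after thinning to 4000 UMIs (exact permutation p = 0.743). In CD8 T cells alone the share was 71.4% ± 5.35 in WT and 70.3% ± 12.4 in CaMKK2 KO (exact permutation p = 0.943). In NK cells alone it was 58.9% ± 7.11 and 75.7% ± 8.13 (exact permutation p = 0.0571). The highest NK value, 86.6% in CaMKK2 KO M4, came from 3 cells. With lineages read on 1 UMI it was 38.6% from 2 cells, below all WT mice. After thinning, the NK share of WT M2 was 81.8% from 3 cells, above all CaMKK2 KO mice. Whether the 2 lineages differ in this was not tested.

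**Figure D2:**
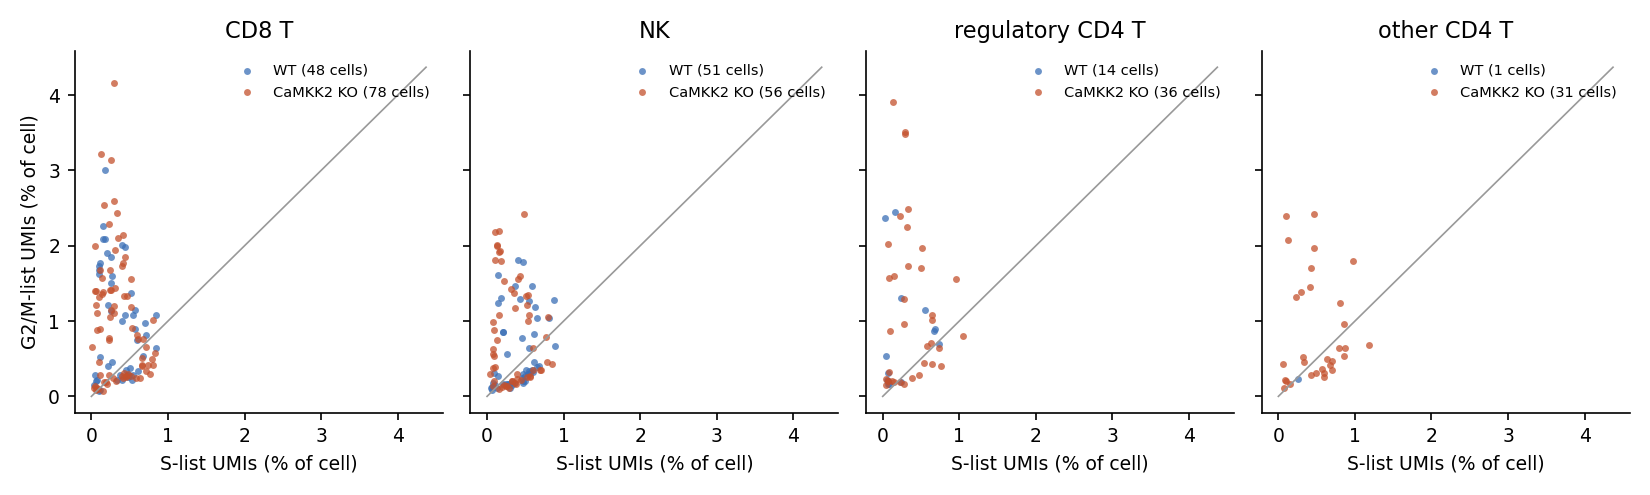
Each point is a cycling cell of a single mouse: S-list UMIs (x axis) against G2/M-list UMIs (y axis), both in percent of the UMIs of the cell, for 4 lineages and both genotypes. The gray line marks equal percentages; 205 of the 315 cells drawn lie above it, and other CD4 T cells number 1 in WT and 31 in CaMKK2 KO.

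Cycling cells were then set beside the non-cycling T and NK cells of the same mouse. Since the rule divided these cells by Top2a and Mki67, the values are a description and were not tested. Of 3246 genes with a mean of at least 50 CPM in either state, 25.4% were higher and 21% lower in cycling cells in all 8 mice, and 4% were at least 2-fold higher and 0.154% at least 2-fold lower in all 8, on the scale of CPM plus 10. A member that reached 50 CPM only through the cycling cells had to be higher in them, as held for 19 of the 26 S genes and 28 of the 38 G2/M genes other than Top2a and Mki67 that reached it. Lists are therefore described over all their members in the files, with no filter on level, and nothing is supported by these counts. Over all 31253 genes of the files 4.46% were higher and 4.83% lower in all 8 mice. Of the 43 S genes 41 were higher in all 8 mice, and of the 52 G2/M genes other than Top2a and Mki67 51 were, with median log2 differences of 1.51 and 2.38. The exceptions were Cenpu and Dscc1, higher in 7 mice, and Psrc1, higher in 6 and lower in 2.

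Replication genes stood high in all 8 mice. Pclaf averaged 450.2 ± 81.1 CPM (SD, n = 8) in cycling and 5.37 ± 2.39 CPM in non-cycling cells. Rrm2, the inducible subunit of ribonucleotide reductase, averaged 169 ± 36.0 and 3.67 ± 1.79 CPM, and Dut, which clears dUTP, 432 ± 65.9 and 83.6 ± 9.06 CPM. Pcna, the sliding clamp, averaged 351 ± 56.2 and 86.3 ± 11.7 CPM. Of the 26 licensing and fork genes, 24 were higher in all 8 mice and Cdt1 and Orc1 in 7, and of the 15 nucleotide synthesis genes 14 were higher in all 8. The exception was Samhd1, which breaks down deoxynucleotides and was lower in all 8 mice (median log2 difference -1.09). Histone genes followed, with H1f5 at 409 ± 123 and 6.39 ± 2.95 CPM and Hist1h2ap at 673 ± 206 and 20.9 ± 7.54 CPM. Histone genes are near-identical copies, so that single members are uncertain.

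Kinetochore and checkpoint genes and kinesin and spindle genes had median log2 differences of 2.71 and 2.63 over all members. Cenpf, a kinetochore protein, averaged 273 ± 68.5 and 3.41 ± 2.57 CPM, and Nusap1, which stabilizes spindle microtubules, 170.1 ± 30.0 and 0.98 ± 0.75 CPM. Cdk1, the mitotic kinase, averaged 186 ± 50.1 and 4.22 ± 1.32 CPM. Ube2c, the ubiquitin-conjugating enzyme of the anaphase-promoting complex, averaged 351 ± 170 and 9.17 ± 4.41 CPM. All 19 kinesin and spindle genes were higher in all 8 mice, and of 19 kinetochore and checkpoint genes 18 were. The exception was Pttg1 (securin), higher in 5 of 8, which is taken up below. The D cyclins, which act at the exit from rest, did not follow the mitotic cyclins. Ccnd2 averaged 218 ± 39.8 CPM in cycling and 426 ± 83.3 CPM in non-cycling cells and was lower in all 8 mice, and Ccnd3 was lower in all 8 as well (median log2 difference -0.46).

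Genes of rest were lower in cycling cells. Of the 17 members of the quiescence list 13 were lower and 0 higher in all 8 mice, with a median log2 difference of -0.90. Klf2, a factor of quiescence and recirculation, averaged 38.7 ± 24.0 and 258 ± 139 CPM, and Btg1, an antiproliferative factor, 515 ± 87.9 and 1317 ± 234 CPM. The 5 genes at least 2-fold lower in all 8 mice, named after their values were seen, were Klf2, Ccl5, Bcl2, Cd7 and Slfn5. Bcl2, which guards against apoptosis, averaged 233 and 652 CPM. Interferon response genes were also lower, with 13 of 17 below in all 8 mice (median log2 difference -0.66), while 9 of 15 glycolysis genes (0.38) and 15 of 19 mTOR and MYC targets (0.47) were higher in all 8.

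Effector genes split. Ccl5, a chemokine of memory and effector cells, averaged 541 ± 694 CPM in cycling and 4422 ± 2263 CPM in non-cycling cells, and Gzma 1361 ± 1003 and 4048 ± 2294 CPM. Both were lower in all 8 mice, and in NK cells alone in all 7 mice with 5 or more cells, by median log2 differences of -6.85 and -1.64. In CD8 T cells alone Ccl5 was lower in 7 of 7 mice and Gzma in 5 of 7. Gzmc, a granzyme of activated lymphocytes, was the most abundant member of the cytotoxic list in cycling cells. It went the other way, with 5886 ± 2858 and 2225 ± 912 CPM, higher in all 8 mice. Gzmb averaged 1848 ± 1410 and 2183 ± 1084 CPM and was higher in 2 of 8. Of the checkpoint list, 0 of 18 members were higher and 4 lower in all 8. Macrophage-type genes also stood lower in cycling cells, among them Cd74 (262 and 986 CPM) and Lyz2 (114 and 461 CPM), and their part in the other differences was not tested.

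**Figure D3:**
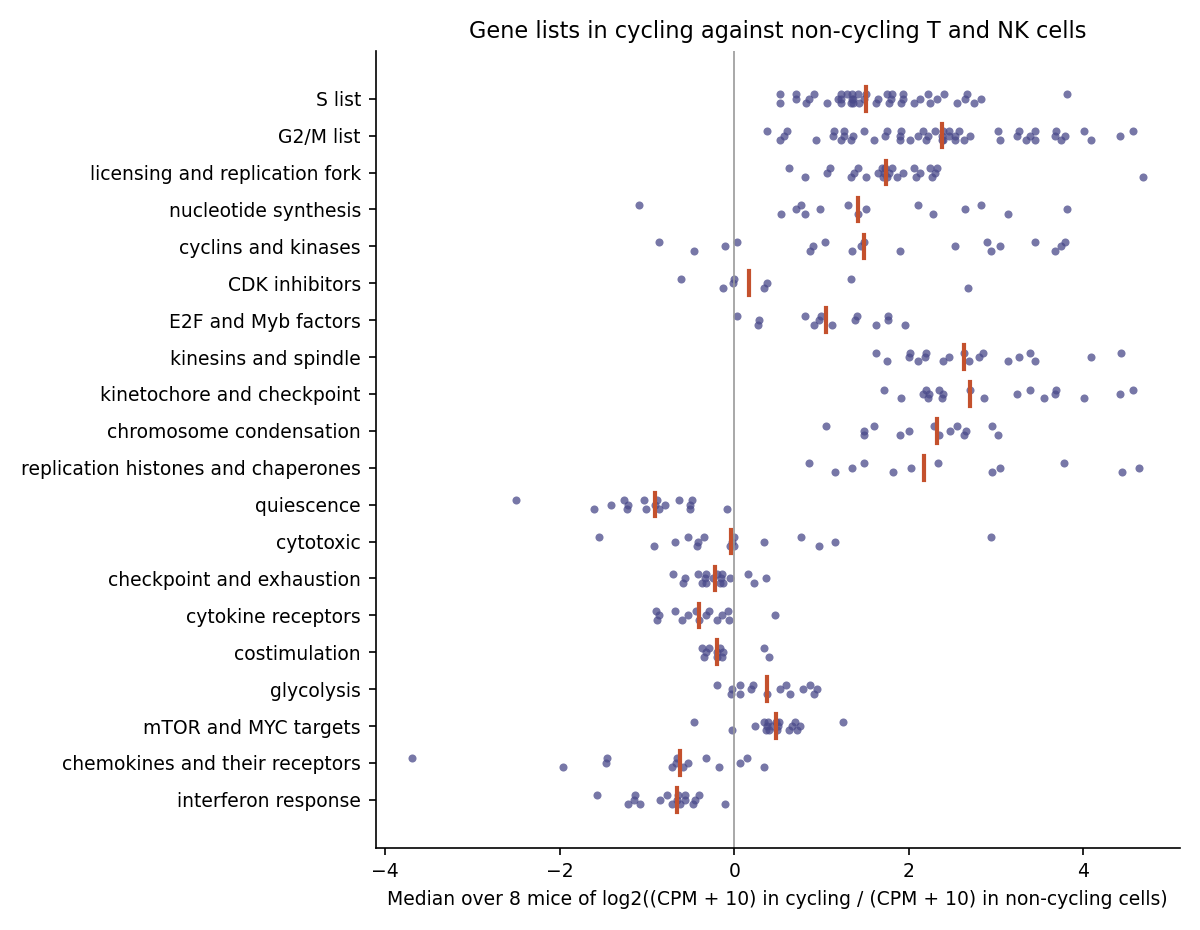
Each point is a list member in the files, with no filter on level, placed by its median over 8 mice of the log2 ratio of CPM plus 10 in cycling to non-cycling T and NK cells (x axis), for each gene list (y axis). Red bars are list medians; Top2a and Mki67 are not drawn, and the S and G2/M lists sit at 1.51 and 2.38, quiescence at -0.90 and interferon response at -0.66.

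The genotypes were compared gene by gene within the cycling cells, over mice. Camkk2 (chr5:122731170-122779409, minus strand) was read first. It stood at 20.8, 8.19, 13.6 and 22 CPM in WT M1 to M4 and 8.41, 6.65, 6.37 and 9.68 CPM in CaMKK2 KO M1 to M4, from 55 and 38 UMIs in all. The genotypes overlapped, and the gene fell under the filter of 200 UMIs and was not tested in cycling cells. In the non-cycling cells it did not differ by the test (log2 fold change -0.44, adjusted p = 0.44). Which exons the knockout removes is not given in the sources used here, and reads were taken at the 3′ ends of transcripts, so that this level does not check the labels.

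Of 5327 genes tested in cycling cells by edgeR's quasi-likelihood test on UMI sums per mouse, 155 (2.91%) passed an adjusted p of 0.05, 97 (1.82%) higher and 58 (1.09%) lower in CaMKK2 KO. In 150 of the 155 the mice of the genotypes did not overlap, as in 12% of all genes tested. In the non-cycling cells, with more UMIs, 94 of 7463 genes passed (1.26%), 59 higher (0.791%) and 35 lower (0.469%). With TMM scaling the cycling cells gave 54 higher and 69 lower, and DESeq2 gave 77 and 104. Without WT M1 to M4 in turn 101, 52, 18 and 42 genes passed, and without CaMKK2 KO M1 to M4 35, 27, 351 and 40. In CD8 T cells alone 8 of 2249 and in NK cells alone 35 of 2351 genes passed. Gene tests by lineage used only mice with 5 or more cells of the lineage. Those in cycling CD8 T cells therefore lacked WT M1 (1 cell), and those in cycling NK cells lacked CaMKK2 KO M4 (3 cells).

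Some mitotic genes rose in CaMKK2 KO cycling cells, and most did not pass. Of the 48 G2/M genes tested, Top2a and Mki67 left out, 7 were higher and 0 lower, 47 had a positive log2 fold change, as had 62.5% of all genes tested, and their median was 0.41 against 0.08 for all genes. The exception was Cbx5, a heterochromatin protein. With TMM scaling 3 were higher and 0 lower, with a median of 0.32. Of smaller lists, 3 of 15 cyclins and kinases, 3 of 19 kinesin and spindle genes, 5 of 19 kinetochore genes and 1 of 14 condensation genes other than Top2a and Mki67 were higher and 0 lower. Over all genes tested 1.82% were higher and 1.09% lower. The smaller lists share called genes with the G2/M list, so that their counts are not separate results. With TMM scaling the counts of higher genes in the smaller lists were 2, 1, 2 and 0. Of the 38 S genes, 0 passed in either direction and the median was -0.02. Ccnb1, the mitotic cyclin B1 (chr13:100778650-100786570), stood at 48.5, 42.3, 60.2 and 66 CPM in WT M1 to M4 and 90.7, 109, 92 and 123 CPM in CaMKK2 KO M1 to M4. Every CaMKK2 KO mouse lay above every WT mouse (log2 fold change 0.86 ± 0.17 (SE), adjusted p = 0.026). Ube2c stood at 90.1, 210.2, 279 and 303 CPM in WT M1 to M4 and 412, 566, 363 and 588 CPM in CaMKK2 KO M1 to M4, again without overlap (log2 fold change 1.052 ± 0.26 (SE), adjusted p = 0.048). Cenpe, a kinesin that carries chromosomes to the spindle equator, stood at 139, 135, 130.4 and 151 CPM in WT M1 to M4 and 191, 201, 202 and 211 CPM in CaMKK2 KO M1 to M4 (log2 fold change 0.53 ± 0.11 (SE), adjusted p = 0.028). Tubb4b, Cks2, Ccnb2, Cenpf, Birc5, Kif18b, Prc1 and Hmgn2 also rose, by log2 fold changes from 0.52 (Birc5) to 0.91 (Kif18b) with adjusted p from 0.02 to 0.047. In NK cells alone Ube2c (2.06), Ccnb1 (1.79) and Prc1 (1.21) passed, with adjusted p of 0.017, 0.044 and 0.047, and in CD8 T cells alone Ube2c (-0.16), Ccnb1 (-0.26), Ccnb2 (-0.24), Cenpf (-0.28), Tubb4b (-0.13) and Cenpe (-0.02) were not above WT. That difference between lineages was not tested. Prc1 lost its call in 14 of 19 alternative settings, Birc5 in 13, Hmgn2 in 12 and Cks2 in 10. Ccnb2 lost it in 14, Ube2c in 13 and Cenpf in 10, and each also in CD8 T cells alone, where the sign turned.

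**Figure D4:**
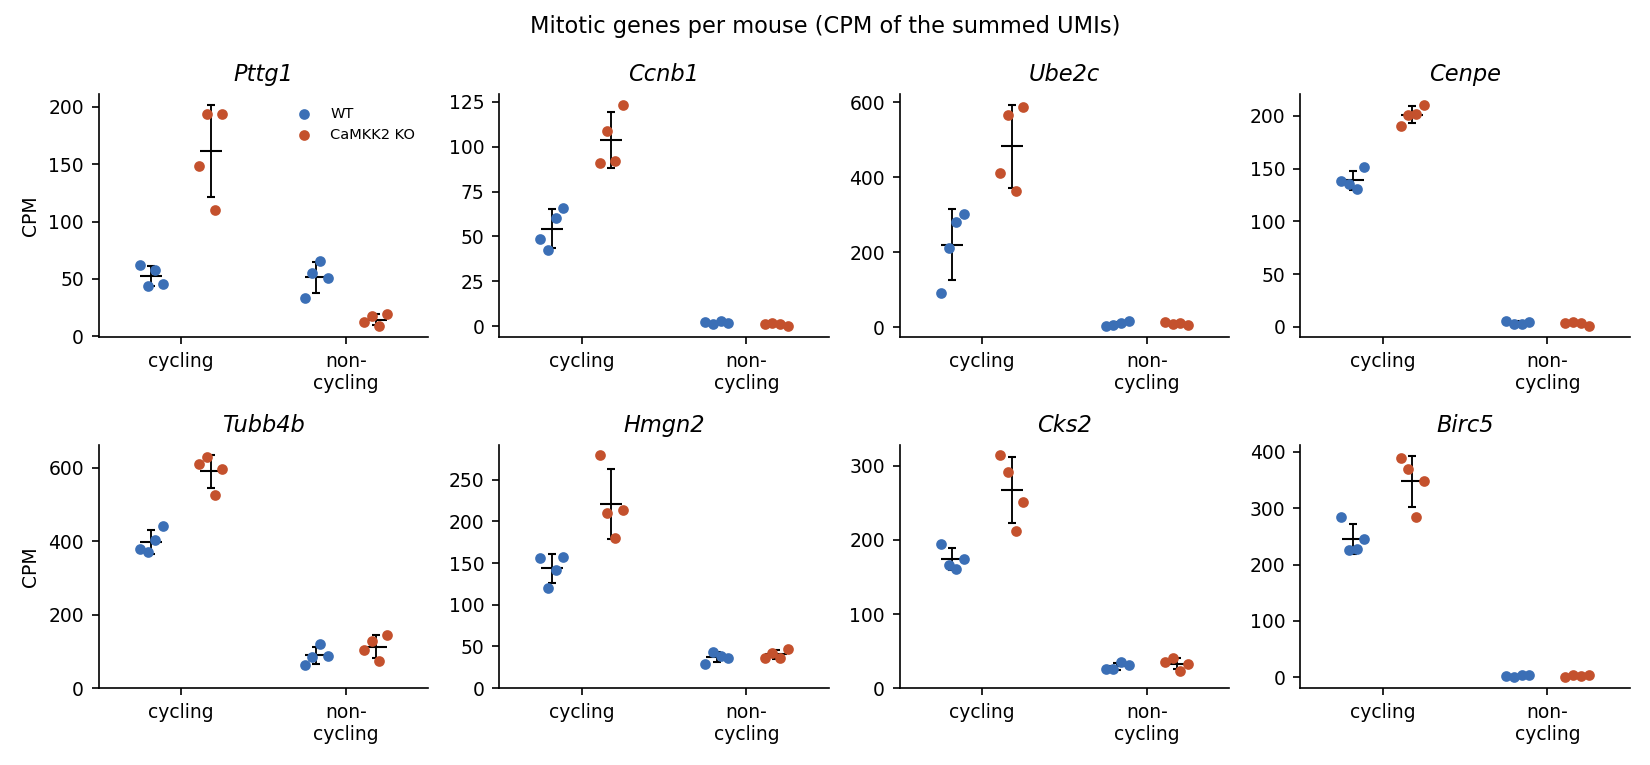
CPM (y axis, from 0) of 8 mitotic genes in cycling and non-cycling T and NK cells. Points are mice, and bars are the mean and SD of 4 mice; in non-cycling cells Pttg1 is higher in WT, and in cycling cells higher in CaMKK2 KO.

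Pttg1 was the clearest of the genes whose genotype effect depended on the state. Pttg1 (chr11:43420250-43426251, minus strand) encodes securin, which holds separase inactive until anaphase. In cycling cells it stood at 62.4, 43.7, 58 and 45.8 CPM in WT M1 to M4 and 149, 194, 110.2 and 194 CPM in CaMKK2 KO M1 to M4. All CaMKK2 KO mice lay above all WT mice (log2 fold change 1.62 ± 0.20 (SE), adjusted p = 0.001). In CD8 T cells alone it was 1.33 and did not pass (adjusted p = 0.097). In non-cycling cells it stood at 33.2, 55.5, 65.9 and 50.5 CPM in WT M1 to M4 and 12.7, 17.4, 8.8 and 19 CPM in CaMKK2 KO M1 to M4. There all CaMKK2 KO mice lay below all WT mice (log2 fold change -1.93 ± 0.25 (SE), adjusted p = 0.0032). The WT ranges of the 2 states overlapped, and the CaMKK2 KO ranges did not. The difference of the 2 effects was 3.59 ± 0.21 on the log2 scale (edgeR interaction with the mouse as a block, adjusted p = 2.1e-07). In B cells of the same libraries, barcodes with 4 or more UMIs of B cell markers and none of the T and NK genes of the rule, Pttg1 was at 42.9 CPM (WT) and 15.7 CPM (CaMKK2 KO).

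In all, 3 of 5327 genes (0.0563%) passed the interaction test, 1 higher (0.0188%) and 2 lower (0.0375%). The others were Gzmg, a granzyme, and Klra8, which encodes the activating NK receptor Ly49H. Klra8 stood at 114, 94.2, 121 and 83.4 CPM in WT M1 to M4 and 15.9, 20.6, 60.6 and 31.5 CPM in CaMKK2 KO M1 to M4 in cycling cells, without overlap (log2 fold change -1.58 ± 0.32 (SE), adjusted p = 0.031), and at 111, 127, 179.8 and 144 CPM in WT M1 to M4 and 124, 200.5, 176 and 164 CPM in CaMKK2 KO M1 to M4 in non-cycling cells, where the genotypes overlapped (interaction -1.85 ± 0.31, adjusted p = 0.042). That interaction missed the threshold in 7 of 11 alternative settings. In NK cells alone its log2 fold change was -0.79 (adjusted p = 0.158), and NK cells averaged 45.9% of the cycling cells in WT and 22.6% in CaMKK2 KO. Gzmg stood at 72.8, 158, 204 and 40.3 CPM in WT M1 to M4 and 0, 55.6, 5.92 and 0 CPM in CaMKK2 KO M1 to M4 in cycling cells (interaction -4.40 ± 0.56, adjusted p = 0.0027), and its genotype difference within cycling cells did not pass (adjusted p = 0.062). Klra8 and the granzymes belong to families of near-copies, among which reads may be split. Gzmd and Pglyrp1, the next by p, had interactions of -3.42 and -0.95 that did not pass (adjusted p = 0.085 for each).

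Of the receptors of T cell activation, Tnfrsf9 fell and Lag3, Cd2 and Ctla4 rose over all cycling cells. Tnfrsf9 (4-1BB, a costimulatory receptor, chr4:150914562-150946102) stood at 457, 404, 373 and 301 CPM in WT M1 to M4 and 159.9, 148, 183 and 157 CPM in CaMKK2 KO M1 to M4. Every CaMKK2 KO mouse lay below every WT mouse (log2 fold change -1.22 ± 0.14 (SE), adjusted p = 4.3e-04), and so it was in non-cycling cells (264 ± 36.8 and 125 ± 18.4 CPM, adjusted p = 0.002). The inhibitory receptor Lag3 stood at 52, 104, 99.6 and 110.03 CPM in WT M1 to M4 and 179, 186, 158 and 237 CPM in CaMKK2 KO M1 to M4, without overlap (log2 fold change 0.95 ± 0.18 (SE), adjusted p = 0.021), and Ctla4, a checkpoint receptor abundant in regulatory T cells, also rose (log2 fold change 0.75 ± 0.19 (SE), adjusted p = 0.049). Cd2, an adhesion receptor, stood at 114, 238, 159.8 and 257 CPM in WT M1 to M4 and 385, 351, 294 and 516 CPM in CaMKK2 KO M1 to M4 (log2 fold change 0.95 ± 0.22 (SE), adjusted p = 0.043). Trac, a general T cell gene outside the rule, had a log2 fold change of 1.11 that did not pass (adjusted p = 0.058), and the part of the lineage make-up in these differences was not tested. In CD8 T cells alone Lag3 (-0.02), Cd2 (0.29) and Ctla4 (0.33) did not pass, nor did Cd2 (-0.0045) and Ctla4 (0.21) in NK cells alone. Ctla4 lost its call in 13 of 19 alternative settings, and Cd2 in 13 besides NK cells alone, where its sign turned. Tnfrsf9 was -1.37 in CD8 T cells alone (adjusted p = 0.077) and -1.23 in NK cells alone (adjusted p = 0.038). Over all genes tested 1.82% were higher and 1.09% lower. Of the checkpoint list, 2 of 17 tested genes were higher and 0 lower, with a median of 0.04 (-0.05 with TMM scaling), and of the costimulation list 1 was higher and 1 lower of 9 (0 and 1 with TMM scaling). Tnfrsf4 (OX40), a costimulatory receptor of that list, did not pass over all cycling cells (0.84, adjusted p = 0.31) and was lower in CD8 T cells alone (-1.93, adjusted p = 0.038). Pdcd1 (0.34 ± 0.27, adjusted p = 0.57), Havcr2 (0.91 ± 0.35, adjusted p = 0.19), Tox (-0.18 ± 0.33, adjusted p = 0.85), Slamf6 (0.91 ± 0.38, adjusted p = 0.22) and Tcf7 (-0.82 ± 0.33, adjusted p = 0.21) did not pass. Tox was -0.98 in CD8 T cells alone and did not pass either (adjusted p = 0.43).

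Effector genes moved unevenly. Ifng, the cytokine interferon gamma, stood at 104, 36.9, 86 and 133 CPM in WT M1 to M4 and 162, 219, 166 and 264 CPM in CaMKK2 KO M1 to M4, without overlap (log2 fold change 1.14 ± 0.28 (SE), adjusted p = 0.047). Without the other CD4 T cells it was 0.41 (adjusted p = 0.63), and the call was lost in 11 of 18 alternative settings. Nkg7, a cytotoxic granule protein, rose (log2 fold change 0.48 ± 0.12 (SE), adjusted p = 0.049), and Gzmd fell, but their calls were lost in 15 and 14 of 19 alternative settings. Gzmd stood at 755, 1242, 1181 and 699.6 CPM in WT M1 to M4 and 46.7, 542, 208 and 121 CPM in CaMKK2 KO M1 to M4 (log2 fold change -2.04 ± 0.50 (SE), adjusted p = 0.049), and it was -5.93 in CD8 T cells alone (adjusted p = 0.054) and -0.55 in NK cells alone (adjusted p = 0.75). Gzma stood at 1150.4, 272, 867 and 629.9 CPM in WT M1 to M4 and 913, 3153, 2630.2 and 1271 CPM in CaMKK2 KO M1 to M4, with overlap (log2 fold change 1.47 ± 0.41 (SE), adjusted p = 0.069), and passed in NK cells alone (2.09, adjusted p = 0.005) and in the non-cycling cells (1.27, adjusted p = 0.022). It was 5.01 in CD8 T cells alone and did not pass (adjusted p = 0.101). Gzmb did not pass (log2 fold change 1.14 ± 0.48 (SE), adjusted p = 0.23), nor did it in CD8 T cells alone (2.32, adjusted p = 0.153). The cytotoxic list had 2 genes higher and 1 lower of 15 tested, against 1.82% and 1.09% of all genes tested. Its median was -0.05, and none of its genes passed with TMM scaling. Lgals3, which encodes galectin-3, rose (log2 fold change 1.29 ± 0.28 (SE), adjusted p = 0.035) but lost its call in 10 of 19 alternative settings, and Stat3 did not pass (log2 fold change -0.36 ± 0.19 (SE), adjusted p = 0.34), nor did it in CD8 T cells alone (-0.77, adjusted p = 0.068). Cd40lg, with 0 UMIs in WT M1 and M2, and Tnf were under the filter.

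**Figure D5:**
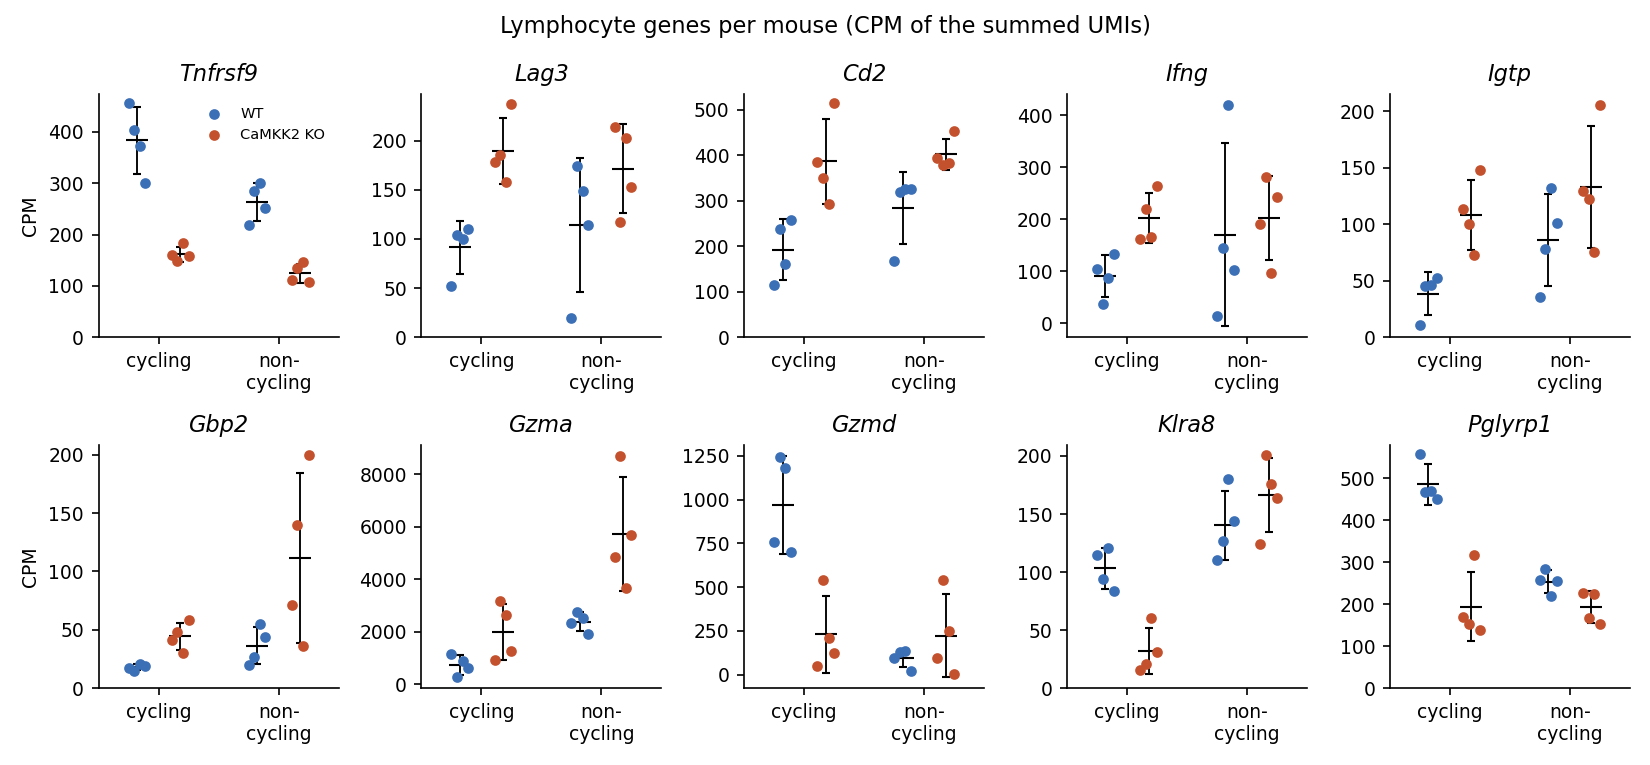
CPM (y axis) of 10 lymphocyte genes in cycling and non-cycling T and NK cells. Points are mice, and bars are the mean and SD of 4 mice; Tnfrsf9 is lower in CaMKK2 KO in both states, and Klra8 passes the test in cycling cells but not in non-cycling cells.

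Of the interferon response genes a few rose. Of 12 tested, 3 were higher and 0 lower (2 and 0 with TMM scaling), against 1.82% and 1.09% of all genes tested. Of the 12, 11 had a positive log2 fold change, against 62.5% of all genes tested, with a list median of 0.84. Igtp, an immunity-related GTPase, stood at 10.4, 45.1, 46.6 and 52.3 CPM in WT M1 to M4 and 113, 100.4, 72.4 and 148 CPM in CaMKK2 KO M1 to M4 (log2 fold change 1.25 ± 0.27 (SE), adjusted p = 0.034). The CaMKK2 KO mice all lay above the WT mice. Gbp2, a guanylate-binding protein, and Iigp1, another immunity-related GTPase, rose by 1.17 and 2.44. Iigp1 lost its call in 12 of 15 alternative settings, Gbp2 in 9 of 16 and Igtp in 9 of 18. In non-cycling cells 0 of 17 were higher and 2 were lower, Ifi206 and Ifi213, against 0.791% and 0.469% of all genes tested there. The list median was 0.55. Monocyte and neutrophil markers summed to 355 ± 105 CPM in the cycling cells of WT mice and 597 ± 109.7 CPM in those of CaMKK2 KO mice, and their part in these differences was not tested. Ly6c2, which T and NK cells also make, was at 149.7 CPM in WT mice and 383 CPM in CaMKK2 KO mice, and the macrophage marker Lyz2 at 59.8 and 168 CPM (log2 fold change 1.53, adjusted p = 0.099). Ccr2 was at 201 and 211 CPM, S100a8 at 2.53 and 0.11 CPM, and S100a9 at 1.91 and 0.65 CPM. Of the other lists, 1 of 14 glycolysis genes (Pfkp, log2 fold change 0.54 ± 0.12 (SE), adjusted p = 0.034) was higher (0 with TMM scaling, and the call was lost in 12 of 19 alternative settings), and 0 genes passed among licensing and fork, nucleotide synthesis, CDK inhibitor, E2F and Myb factor, histone, quiescence, cytokine receptor, mTOR and MYC, and chemokine lists. With TMM scaling 2 mTOR and MYC targets were lower.

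The lineage gene Cd4, which also defines the gate of the other CD4 T cells, rose, at 0, 21.8, 11.5 and 17.4 CPM in WT M1 to M4 and 41.1, 103, 40.5 and 96.8 CPM in CaMKK2 KO M1 to M4 (log2 fold change 2.205 ± 0.44 (SE), adjusted p = 0.028). Foxp3 did not pass (log2 fold change 0.84 ± 0.46 (SE), adjusted p = 0.36). Emp1, a membrane protein, Tesc, a calcium-binding protein, Cd200, an inhibitory ligand, and Ifi44, an interferon-induced gene, were among the genes that rose most, by 2.93, 2.29, 2.16 and 2.52. In non-cycling cells Emp1 (2.62), Cd200 (2.17) and Ifi44 (2.75) also passed edgeR's test, with adjusted p from 3.7e-04 to 0.014. Tesc did not (0.72, adjusted p = 0.35). Cd200 lost its call in 8 of 17 alternative settings. Among the genes that fell most were AA467197 (-1.44), Klri2, an NK lectin receptor (-1.39), Pglyrp1, a peptidoglycan recognition protein (-1.28), the histone gene H2ac20 (-1.24) and Ighm, the IgM heavy chain (-1.36), which stood at 3113 CPM in WT B cells. Some of the largest differences were as large in non-cycling cells. Wls, needed for Wnt secretion, was 27.5 and 207 CPM on average in cycling and 39.6 and 453 CPM in non-cycling cells, and 22.7 and 109 CPM in B cells. Apoe, the lipid carrier of macrophages, was 219 and 17.6 CPM in cycling and 402 and 35.6 CPM in non-cycling cells, and 1303 and 604 CPM in B cells. Gm8797 rose by 4.89 and Eif3j2 by 4.53 where Eif3j1 fell by 2.35, and these have near-identical copies among which reads may be split. In WT and CaMKK2 KO B cells Gm8797 stood at 10.1 and 172 CPM, Eif3j2 at 2.53 and 37.2 CPM, and Eif3j1 at 55.6 and 24.0 CPM. Gm49980, a long noncoding RNA, rose by 2.53, and Gm47283, annotated on chromosome Y at its pseudoautosomal end, fell by 2.62. Klri2 lost its call in 11 of 18 alternative settings and was -0.80 in NK cells alone (adjusted p = 0.059), and Gm47283 lost its call in 11 of 19.

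Ribosomal protein genes were grouped after their values had been seen. Of 77 tested, 28 were lower and 0 higher in CaMKK2 KO cycling cells, against 1.09% lower and 1.82% higher of all genes tested. Their median was -0.29, against 0.08 for all genes. With TMM scaling 32 were lower and 0 higher, against 69 and 54 of all 5327 genes tested. Ribosomal protein genes took 29.3%, 27.5%, 28.5% and 28.2% of the UMIs of cycling cells in WT M1 to M4 and 23.0%, 22.6%, 26.0% and 21.2% in CaMKK2 KO M1 to M4. The genotypes did not overlap. In non-cycling cells the shares were 33.4%, 28.9%, 28.0% and 30.8% in WT and 24.7%, 20.7%, 27.5% and 20.7% in CaMKK2 KO, again without overlap. There 3 of 77 genes were lower, against 0.469% of all genes tested.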

How the data were processed

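Submitters' processing notes name Cell Ranger 4.0.0, STAR 2.7.5c, bcl2fastq 2.20, Seurat and mm10. The authors deposited UMI counts per gene and barcode, with hashtag counts, unnormalized. Hashtags were assigned here with HTODemux (Seurat 5.3.0, quantile 0.99), and barcodes with 2 hashtags were left out of values per mouse. UMIs were summed per mouse and tested with edgeR 4.0.16 (quasi-likelihood, total-count library sizes, genes with at least 200 UMIs, Benjamini-Hochberg adjustment at 0.05), after the code had been tested on simulated data. The study's test on single cells was not used, because cells are not replicates. Shares were compared by exact permutation tests over mice. Intervals and limits cover counting error only. State ratios used CPM plus 10, with genes of at least 50 CPM for counts over all genes and no filter for lists. Named genes were markers, genes the study discusses, the 10 highest and 10 lowest non-overlapping 2-fold calls, the 15 highest and lowest state ratios, the 4 most abundant and all called members of each list, and the 5 smallest interaction p. The members and lists were chosen with earlier results of these data known. A member of the interferon list is not reported here and was left out of it. Alternatives were DESeq2 1.42.0, TMM scaling, filters at 1 and 50 UMIs, 8 UMIs of Top2a plus Mki67, thinning to 4000 UMIs, under 5 C1q UMIs, Scrublet, single lineages and leaving out each mouse. Lineages alone for the cycling share, NK cells alone for the G2/M share, removal of other CD4 T cells and removal of barcodes found in both libraries were added after seeing the data.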

Additional observations from a re-analysis of the deposited data

Results flagged for a closer look

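In 14 of 124 groups of 4 mice 1 mouse stood far from the other 3, and how often chance would flag such a group was not tested. Of the cycling cells, CD8 T cells were 8.33% in WT M1 and 39.0% to 43.2% in the other WT mice, and NK cells were 40.2% in CaMKK2 KO M3 and 15.8% to 18.8% in the others. WT M3 alone among WT mice had cycling other CD4 T cells, at 2.27%. Gamma-delta T cells were 3.57% in WT M2 and 1.75% in CaMKK2 KO M2, and 0% in the other mice of either genotype.

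Among genes in cycling cells, the mouse that stood apart was WT M2 for Gm8797 (2.73 CPM), WT M1 for Klri2 (166 CPM) and WT M3 for Slamf6 (22.9 CPM). In CaMKK2 KO it was M3 for Pglyrp1 (316 CPM), M4 for Stat3 (237 CPM) and Nkg7 (1619.5 CPM), and M2 for Slamf6 (48.4 CPM), Foxp3 (19.9 CPM, the lowest) and Gzmg (55.6 CPM).

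The genotype effect differed between cycling and non-cycling cells by the interaction test for 3 genes, by 3.59 for Pttg1, -4.40 for Gzmg and -1.85 for Klra8 on the log2 scale.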

How the results depend on the processing

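No pairing of WT with CaMKK2 KO mice was possible because hashtag numbers name mice within a genotype and do not link mice across genotypes. WT M1 and CaMKK2 KO M4 had the fewest UMIs, which limits detection, and the causes of the changes below were not tested.

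The number of genes that passed in cycling cells was 155, and became 49 with 8 or more UMIs of Top2a plus Mki67, 8 in CD8 T cells alone, 35 in NK cells alone, 532 with genes of at least 1 UMI, 36 with under 5 C1q UMIs and 89 without other CD4 T cells. Leaving out a mouse gave 18 (without WT M3) to 351 (without CaMKK2 KO M3). In non-cycling cells it was 94, and became 25 in CD8 T cells alone, 231 with DESeq2, 418 and 146 with genes of at least 1 and 50 UMIs, 144 without the highest Scrublet scores, and 25 to 400 on leaving out a mouse. The interaction gave 2 to 18. The 5 genes at least 2-fold lower in cycling cells became 1 in CD8 T cells alone, 12 in NK cells alone and 14 with 8 or more UMIs.

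The difference in the G2/M share, 6.42 points, became 1.62 after thinning, 5.36 with 8 or more UMIs, 5.69 without the highest Scrublet scores, -1.02 in CD8 T cells alone and 16.8 in NK cells alone, and 4.92 to 7.48 on leaving out a mouse. The NK value includes CaMKK2 KO M4, which had 3 cycling NK cells. The difference in the cycling share, 1.41 points, became 13.1 in CD8 T cells alone and -2.69 in NK cells alone. That in the other CD4 share ran from 11.8 to 21.1 on leaving out a mouse, and with 3 mice against 4 the smallest exact p is 0.0571. The CD8 share ran from -1.71 to 10.00 and the gamma-delta share from -0.89 to 0.44, and the latter was 0.89 after thinning. The excess of CD8 T over other CD4 T rates became 4.14 after thinning.

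Among the genes discussed between genotypes, log2 fold changes turned sign in CD8 T cells alone for Tnfrsf4 (-1.93, adjusted p = 0.038), Pdcd1 (-0.40), Ube2c (-0.16), Cenpf (-0.28), Ccnb2 (-0.24), Tubb4b (-0.13), Cenpe (-0.018), Ccnb1 (-0.26) and Lag3 (-0.024), in NK cells alone for Cd2 (-0.0045), and without WT M4 for Tox (0.16), whose values on leaving out a mouse ran from -0.37 to 0.16. Named results that lost their call numbered 31 without WT M3, 27 without CaMKK2 KO M2, 26 with under 5 C1q UMIs, 24 without WT M2 and 24 without WT M4, 23 with 8 or more UMIs and 23 without CaMKK2 KO M1, 22 without CaMKK2 KO M4, 14 with TMM scaling and 5 with DESeq2. They numbered 13 without other CD4 T cells and 12 without WT M1. In CD8 T cells alone 17 lost the call and 8 others turned sign, and in NK cells alone 16 and 1. These settings also lacked WT M1 and CaMKK2 KO M4, respectively, which had too few cycling cells of the lineage. DESeq2 left 34 named results the same, against 43 with TMM scaling. Nkg7 lost its call in 15 of 19 settings, Gzmd in 14, Ctla4 in 13, and Cd2 in 13 besides NK cells alone, where its sign turned. The calls of Apoe, Wls and Gm8797 held in all 19.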
